A study of Mus musculus with 15 samples.

Results

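The genes described here are the collagen chain genes, taken as every gene symbol made of Col, a number, the letter a and a number with nothing after it, and reaching at least 1 CPM (counts of each library scaled to a common total, with TMM factors) in at least 1 library. Of 44 such symbols among 30281 named genes, 40 met this level, and all 40 were among the 17136 genes tested. Col19a1 (highest library 1.01 CPM) and Col22a1 (1.12) lay just inside the level, and Col10a1 (0.635), Col2a1 (0.571), Col9a2 (0.429) and Col9a1 (0.205) lay outside it. The 40 genes were grouped as 10 fibrillar chains, 9 chains of the basement membrane zone, 7 fibril-associated chains, 4 transmembrane chains and 10 other chains (types VI, VIII, XXVI and XXVIII).

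The skin came from C57BL/6 mice of a wound series and was profiled by RNA-seq in 15 libraries, 3 each for day 0, 1, 3, 5 and 7. The labels record that muscle and fat were removed from the skin. All 15 libraries carry the stress label wound, also those of day 0, and no allele or agent is labelled. Neither the age of the mice nor the origin of the 3 libraries of a day is given, so p-values measure only how these samples vary, and that variation may be technical. The comparisons ask how the message of each collagen chain differed between the days.

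Collagens are the main structural proteins of the dermis. Each molecule is a rod-like helix wound from chains that are encoded by separate genes, folded and hydroxylated in the endoplasmic reticulum, and secreted. Fibrillar types I, III and V form the cable-like fibrils of the dermis, made mostly by fibroblasts. Type IV forms the sheet of basement membranes under the epidermis and around vessels, type VII anchors the epidermal basement membrane to the dermis, fibril-associated types decorate the fibrils, and transmembrane types such as XVII sit in the cell membrane.

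Library totals ran from 38062562 to 60450396 estimated counts. Summed hair follicle markers (7 of 8 listed genes were in the files) reached 3362 CPM in day 5 replicate 2 and 4036 CPM in day 7 replicate 3 and were at most 328 CPM in each of the other 13 libraries. Skeletal muscle markers, 5 of 5 detected, summed to between 2001 and 9133 CPM although the labels say that muscle was cleaned off, and fibroblast and keratinocyte markers were detected in every library (3747 to 8009 and 4379 to 13193 CPM summed). Because these are bulk samples, fewer cells of a type and less RNA per cell cannot be told apart.

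Upstream sequences of 6 chains are shown as examples. Col1a2 and Col3a1 were taken as dominant dermal fibril chains, without a call. Col24a1 and Col7a1 were taken as chains higher at day 7 and Col8a1 as a chain higher at day 1. Col18a1 was taken as a chain above day 0 in every later library. The windows printed overlap no annotated gene. They are the 250 bases before a RefSeq gene start in build GRCm38.p6, read 5′ to 3′ on the gene's strand, at chr6:4505368-4505617 (plus strand), chr1:45311288-45311537 (plus), chr3:145292222-145292471 (plus), chr9:108953336-108953585 (plus), chr16:57754738-57754987 (minus) and chr10:77166531-77166780 (minus). Capitals mark matches on either strand to CCAAT, the TATA box TATAAA, the GC box GGGCGG and the AP-1 motif TGACTCA.
Col1a2: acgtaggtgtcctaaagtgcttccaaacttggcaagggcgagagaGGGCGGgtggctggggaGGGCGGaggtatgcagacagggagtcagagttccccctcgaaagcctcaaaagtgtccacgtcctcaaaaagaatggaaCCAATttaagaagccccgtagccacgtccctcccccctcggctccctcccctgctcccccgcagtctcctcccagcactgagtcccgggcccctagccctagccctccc
Col3a1: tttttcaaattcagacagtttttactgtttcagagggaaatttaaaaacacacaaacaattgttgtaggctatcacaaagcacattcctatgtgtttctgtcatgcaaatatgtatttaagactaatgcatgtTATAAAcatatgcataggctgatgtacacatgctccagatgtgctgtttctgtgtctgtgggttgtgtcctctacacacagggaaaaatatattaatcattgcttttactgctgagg
Col24a1: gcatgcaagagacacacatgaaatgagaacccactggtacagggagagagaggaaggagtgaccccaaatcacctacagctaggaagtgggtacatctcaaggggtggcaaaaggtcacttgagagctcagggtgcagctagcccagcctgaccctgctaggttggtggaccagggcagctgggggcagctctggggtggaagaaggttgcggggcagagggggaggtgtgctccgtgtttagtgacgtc
Col7a1: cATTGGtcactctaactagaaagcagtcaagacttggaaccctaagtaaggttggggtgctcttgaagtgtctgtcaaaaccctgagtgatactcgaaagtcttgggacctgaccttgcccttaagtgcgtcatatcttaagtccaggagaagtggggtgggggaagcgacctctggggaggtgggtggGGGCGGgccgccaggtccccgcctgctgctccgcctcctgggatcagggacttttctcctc
Col8a1: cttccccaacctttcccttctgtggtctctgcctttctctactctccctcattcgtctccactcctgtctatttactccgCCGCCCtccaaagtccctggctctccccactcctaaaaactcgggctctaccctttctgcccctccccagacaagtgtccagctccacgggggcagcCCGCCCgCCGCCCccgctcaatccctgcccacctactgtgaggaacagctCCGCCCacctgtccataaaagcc
Col18a1: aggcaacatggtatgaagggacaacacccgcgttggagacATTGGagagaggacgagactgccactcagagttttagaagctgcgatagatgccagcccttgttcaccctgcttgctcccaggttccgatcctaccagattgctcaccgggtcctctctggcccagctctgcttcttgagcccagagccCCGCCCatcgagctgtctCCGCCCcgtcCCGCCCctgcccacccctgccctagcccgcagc
Of the 40 chains, 32 had an entry in the RefSeq promoter table (not Col12a1, Col14a1, Col1a1, Col22a1, Col26a1, Col4a3, Col5a2 or Col9a3). Col18a1 has 2 annotated starts, and its other window (chr10:77113706-77113955, not shown) holds none of the 4 motifs. Col6a2 also has 2 annotated starts, and a chain was counted if any of its windows held the motif. GGGCGG was found for 20 of the 32 chains and in 32.7% of all 32851 windows of this length, CCAAT for 12 and in 33.8%, TATAAA for 4 and in 12.4%, and TGACTCA for 1 (Col6a1) and in 4.46%. Counted by window, these motifs were in 21, 12, 4 and 1 of the 34 windows of the chains. The windows shown differ in these letters. That of Col8a1 holds 4 matches to GGGCGG and that of Col24a1 none of the 4 motifs. That of Col3a1 holds a TATAAA match starting 117 bases before the gene start and no GGGCGG. These matches describe the letters and were not tested as binding sites.

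Collagen transcripts were a large part of the library at every day, and 3 chains made up most of them. The 40 genes took 6.11%, 6.92% and 6.28% of the counts of named genes at day 0, 3.13%, 4.89% and 2.47% at day 1, 4.87%, 3.49% and 6.51% at day 3, 4.82%, 2.94% and 4.96% at day 5, and 6.16%, 5.6% and 2.82% at day 7. Every day 1 and day 5 library lay below the lowest day 0 library, while day 3 and day 7 overlapped day 0, and the difference between days did not pass an exact permutation test of the one-way F statistic (p = 0.17, one-sided by construction). With 1 library left out, p from 100000 random permutations ran from 0.0671 (without day 7 replicate 3) to 0.331 (without day 0 replicate 2). The lowest shares of day 5 and day 7 (2.94% and 2.82%) were in the 2 libraries high in hair follicle markers. Without these, p was 0.0701 by random permutations. Col1a1, Col1a2 and Col3a1 together held between 79.3% (day 1 replicate 3) and 92.3% (day 0 replicate 2) of the collagen counts. Divided by the length of the longest coding transcript, the day 0 means were 3827 CPM per kilobase for Col3a1, 3676 for Col1a2 and 2839 for Col1a1, and the next chain, Col6a1, was at 173. These 4 kept ranks 1 to 4 at each of the 5 days. The bars of the collagen share by library show this make-up.

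**Figure D1:**
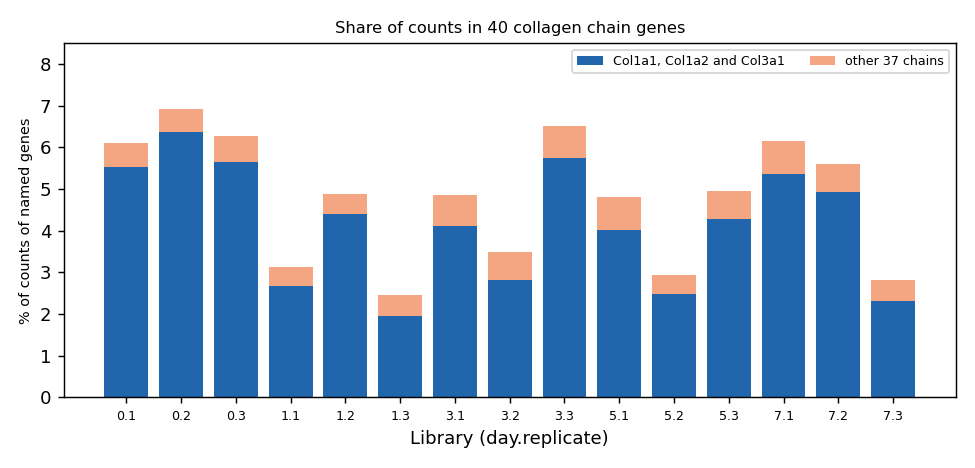
Share of each library's counts of named genes (y axis, percent) in the 40 collagen chain genes, by library (x axis, day and replicate), split into Col1a1, Col1a2 and Col3a1 (blue) and the other 37 chains (orange). The day 0 bars reach 6.11 to 6.92%, and the lowest bar is day 1 replicate 3 at 2.47%.

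Over the time course 14 of the 40 chains (35%) changed by edgeR's quasi-likelihood F test of the 4 differences from day 0, at an adjusted p under 0.05 with Benjamini-Hochberg adjustment over all tested genes. The same test called 13.9% of all 17136 genes. The 14 were 3 of 10 fibrillar chains (Col5a3, Col24a1 and Col27a1), 6 of 9 basement membrane chains (Col4a1, Col4a2, Col4a5, Col7a1, Col15a1 and Col18a1), 1 of 7 fibril-associated chains (Col12a1), 2 of 4 transmembrane chains (Col23a1 and Col25a1) and 2 of 10 other chains (Col6a4 and Col8a1). By day means, 22 chains were lowest at day 1 and 17 were highest at day 7, 11 at day 3 and 10 at day 0. Such counts were not made over all genes. The 3 most abundant chains were not among the 14. Col6a4 and Col25a1, which were, reached 1 CPM in no library of day 0 or 1. The heat map of all 40 chains shows the day 1 block in blue for most rows, with Col8a1, Col23a1 and the pair Col4a1 and Col4a2 among the exceptions. The count of 14 became 5 without replicate 2 of day 0 (7.62% of all genes), and 8 without replicate 1 or 2 of day 1 or replicate 2 of day 3 or 7 (6.74% to 9.53%). It was 24 with DESeq2, which called 34.2% of all genes. Without the 2 libraries high in hair keratins it was 23 (22.1% of all genes).

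**Figure D2:**
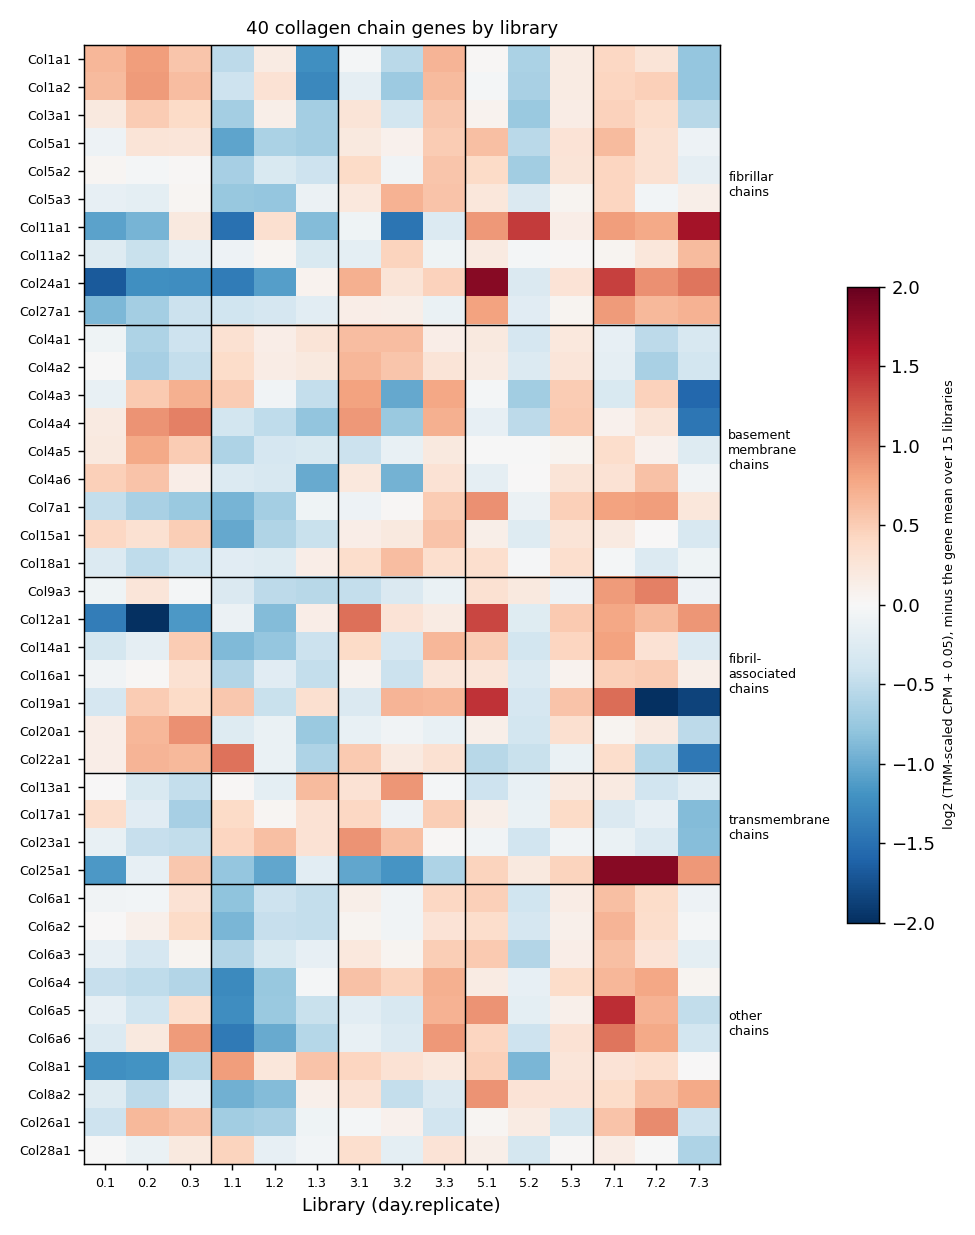
Level of the 40 collagen chains (rows, grouped by class) in the 15 libraries (columns, day and replicate), as log2 of TMM-scaled CPM plus 0.05, minus the gene's mean over the 15 libraries. Red is above and blue below that mean, with colours limited at 2 on the log2 scale. Col12a1, Col24a1 and Col27a1 are blue at day 0 and red at day 7.

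The chains of the main dermal fibrils were highest at day 0 and varied widely between libraries of later days. Col1a1, the chain present in more copies in the type I molecule, measured 16517, 18663 and 15334 CPM at day 0, and 7247, 11685 and 4443 at day 1. At day 3 it measured 10126, 7171 and 16677, followed by 10596, 6751 and 11754 at day 5 and by 13935, 12496 and 6127 at day 7. Col1a2, the other chain of type I, measured 18781, 21730 and 18466 CPM at day 0, and 9072, 14736 and 4924 at day 1. Day 3 gave 10622, 7298 and 18749, followed by 11781, 7734 and 13614 at day 5 and by 16232, 16834 and 7080 at day 7. For both chains every library of day 1, 5 and 7 lay below every day 0 library, as for 18%, 13.8% and 15.3% of all tested genes at these days, and only day 3 replicate 3 reached the day 0 range. Col3a1, the single chain of type III, which shares fibrils with type I, measured 18897, 23377 and 21598 CPM at day 0, and 10328, 17909 and 10352 at day 1. By day 3 it stood at 19663, 12801 and 24117, followed by 17291, 9888 and 18267 at day 5 and by 22677, 20966 and 11209 at day 7. Its day 1 and day 5 libraries lay below day 0, while those of day 3 and 7 overlapped it. At day 1 against day 0 the log2 differences with their SE were -1.11 ± 0.41 for Col1a1, adjusted p = 0.106, -1.04 ± 0.44 for Col1a2, adjusted p = 0.153 and -0.73 ± 0.34 for Col3a1, adjusted p = 0.187 by edgeR, and none of the 3 passed in any contrast or in the test over time. The 4 libraries with the lowest summed fibroblast markers (3747 CPM in day 5 replicate 2, 4143 in day 7 replicate 3, 4207 in day 3 replicate 2 and 5117 in day 1 replicate 3) were the lowest for Col1a1 and Col1a2 within their days. At day 0 this was not so. There the lowest sum was in replicate 1 (6143 CPM), and the lowest Col1a1 and Col1a2 were in replicate 3, with the highest sum (8009 CPM). Most of each sum came from Dcn (2013 to 4648 CPM over the libraries) and Lum (775 to 1860), which are also in the list of fibril-binding proteins used below. All 6 fibroblast markers were detected at every day, but they did not move together at day 1. By edgeR 3 of the 6 fell there (log2 -1.01 ± 0.24 for Dpt, adjusted p = 0.0307, -1.32 ± 0.31 for Cd34, adjusted p = 0.0266 and -1.69 ± 0.46 for Pi16, adjusted p = 0.0457) and Pdgfra rose (1.28 ± 0.2, adjusted p = 0.00911), from 157 to 198 CPM at day 0 to 318 to 483 at day 1. These 4 of 6 compare with 7.58% of all genes called. The calls of Dpt, Cd34 and Pi16 were lost without replicate 2 or 3 of day 0 or any 1 replicate of day 1 (adjusted p from 0.0563 to 0.181), and that of Pdgfra without replicate 2 of day 0 (adjusted p = 0.0609). The part of fibroblast content in the chain differences was not tested.

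Type V chains, which are built into type I fibrils and limit their diameter, were lower at day 1 than on the other days by their means. Col5a1 measured 590, 760 and 750 CPM at day 0, and 307, 409 and 395 at day 1. Day 3 had 729, 672 and 901, followed by 959, 439 and 767 at day 5 and by 989, 784 and 590 at day 7. All 3 day 1 libraries lay below those of day 0 and day 7, and Col5a1 rose from day 1 to day 7 (log2 fold change 1.09 ± 0.26, adjusted p = 0.0176, edgeR), while its day 1 difference from day 0 was just outside the threshold (-0.92 ± 0.26, adjusted p = 0.0519). Col5a2, its common partner, measured 967, 916 and 956 CPM at day 0, and 590, 761 and 705 at day 1. Values at day 3 were 1229, 898 and 1379, followed by 1223, 578 and 1123 at day 5 and by 1263, 1160 and 831 at day 7. It had no call (0.66 ± 0.25, adjusted p = 0.1 for day 7 against day 1). Col5a3, the third chain of the family, measured 129, 126 and 149 CPM at day 0, and 85.8, 84.2 and 133 at day 1. Day 3 showed 168, 234 and 216, followed by 169, 119 and 151 at day 5 and by 194, 140 and 157 at day 7. It was highest at day 3, where all libraries lay above day 0, changed over time (adjusted p = 0.034) and was higher at day 7 than at day 1 (0.7 ± 0.2, adjusted p = 0.0378). The edgeR call of Col5a1 was lost without replicate 1 of day 1 or replicate 1 or 2 of day 7 (adjusted p from 0.05 to 0.0687). Those of Col5a3 were lost over time without replicate 2 of day 0, replicate 1 or 2 of day 1, replicate 2 or 3 of day 3 or replicate 3 of day 5 (adjusted p from 0.0514 to 0.0971) and for day 7 without replicate 1 or 2 of day 1 or replicate 1 or 2 of day 7 (adjusted p from 0.0506 to 0.135).

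Among the minor fibrillar chains, Col24a1 and Col27a1 were higher by day 7. Col24a1, a chain known from developing bone, measured 1.14, 1.57 and 1.55 CPM at day 0, and 1.39, 1.72 and 3.94 at day 1. Day 3 gave 6.14, 4.48 and 5.16, followed by 13.3, 3.06 and 4.55 at day 5 and by 9.76, 7.14 and 7.97 at day 7. Every library of day 3, 5 and 7 lay above day 0, and day 1 overlapped it. Its day 7 mean was 5.84 times that of day 0 by the edgeR fit (log2 2.55 ± 0.51, adjusted p = 0.0176), and 3.52 times that of day 1 (log2 1.82 ± 0.5, adjusted p = 0.0296). Col27a1, a fibrillar chain of cartilage and developing tissues, measured 8.17, 9.54 and 11.3 CPM at day 0, and 11.6, 12.1 and 13.2 at day 1. Day 3 had 16.8, 16.6 and 13.9, followed by 26.7, 13.1 and 15.8 at day 5 and by 27.5, 24.1 and 24.9 at day 7. All 12 later libraries lay above the 3 of day 0, and the day 7 libraries were all above those of day 1 and 3. Col27a1 rose at day 7 against day 0 (log2 1.4 ± 0.22, adjusted p = 0.00886, edgeR) and against day 1 (log2 1.05 ± 0.22, adjusted p = 0.00797), and both calls held with each of the 6 libraries of the contrast left out in turn. The day 7 call of Col24a1 against day 0 was lost without replicate 2 or 3 of day 0 (adjusted p from 0.0574 to 0.0583), and that against day 1 without replicate 1 or 2 of day 1 or replicate 1 or 2 of day 7 (adjusted p from 0.0585 to 0.109).

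Col11a1 and Col11a2, chains of type XI found in cartilage fibrils, had no call. Col11a1 measured 5.02, 5.49 and 12.1 CPM at day 0, and 3.71, 13.2 and 5.74 at day 1. At day 3 it measured 9.95, 3.81 and 8.71, followed by 19.3, 27.9 and 11.6 at day 5 and by 18.8, 17.9 and 33.6 at day 7. Its day 7 libraries lay above day 0 without passing the test (log2 1.64 ± 0.54, adjusted p = 0.0791, edgeR). Its 2 highest libraries, day 5 replicate 2 and day 7 replicate 3, were the 2 with the high hair follicle markers, whose part was not tested. Cartilage markers (5 listed) summed to between 1.35 and 6.3 CPM over all libraries, with Matn1 at 0 in all day 0 libraries. Col11a2 lay between 0.86 and 1.88 CPM.

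Among fibril-associated chains, Col12a1 was the 1 called over time. Type XII collagen lies on the surface of type I fibrils and links them to the surrounding matrix. Col12a1 measured 60.7, 38.4 and 71.6 CPM at day 0, and 147, 86.9 and 174 at day 1. Day 3 gave 343, 193 and 179, followed by 401, 134 and 228 at day 5 and by 272, 247 and 293 at day 7. All 12 later libraries lay above the highest day 0 library, and the day 7 libraries were the closest to each other of the later days. Relative to day 0 the log2 fold change at day 1 was 1.26 ± 0.39, adjusted p = 0.0669, which missed the threshold. Col12a1 rose at day 3 (log2 2.07 ± 0.4, adjusted p = 0.0423), at day 5 (2.16 ± 0.4, adjusted p = 0.0457) and at day 7 (2.25 ± 0.4, adjusted p = 0.0116, edgeR), by 4.76-fold at the last. Per kilobase of transcript its mean went from 4.94 CPM at day 0 to 23.5 at day 7. The day 7 call held with each of the 6 libraries left out. That of day 3 was lost without replicate 2 or 3 of day 0 or replicate 1, 2 or 3 of day 3 (adjusted p from 0.0512 to 0.22). That of day 5 was lost without replicate 2 or 3 of day 0 or replicate 1 or 3 of day 5 (adjusted p from 0.102 to 0.157), and that over time without replicate 2 of day 0 (adjusted p = 0.0566).

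Col14a1, the relative of Col12a1 that also binds type I fibrils, measured 160, 181 and 292 CPM at day 0, and 111, 120 and 152 at day 1. By day 3 it stood at 268, 162 and 326, followed by 292, 159 and 276 at day 5 and by 356, 250 and 170 at day 7. Its day 1 libraries lay below every day 0 library, and no contrast passed (log2 -0.72 ± 0.34, adjusted p = 0.19 for day 1 against day 0, edgeR). Col16a1, a chain of dermal microfibrils near the basement membrane, measured 186, 198 and 240 CPM at day 0, and 129, 166 and 139 at day 1. Day 3 had 205, 144 and 229, followed by 230, 161 and 205 at day 5 and by 272, 276 and 212 at day 7. It was lower at day 1 than at day 0 in every library without passing the test (-0.52 ± 0.19, adjusted p = 0.104) and rose from day 1 to day 7 (log2 0.81 ± 0.19, adjusted p = 0.0156). Col9a3, a type IX chain of cartilage fibrils, was detected at a low level of 1.12, 1.42 and 1.15 CPM at day 0, and 0.963, 0.811 and 0.788 at day 1. Values at day 3 were 0.842, 0.962 and 1.08, followed by 1.47, 1.36 and 1.1 at day 5 and by 2.17, 2.44 and 1.1 at day 7. It was higher at day 7 than at day 1 (log2 1.15 ± 0.28, adjusted p = 0.0176). Col19a1, Col20a1 and Col22a1 stayed between 0 and 3.69 CPM and had no call. The edgeR call of Col16a1 was lost without replicate 1 of day 1 or replicate 2 of day 7 (adjusted p from 0.0588 to 0.0595) and that of Col9a3 without replicate 2 or 3 of day 1 or replicate 2 of day 7 (adjusted p from 0.0556 to 0.0722).

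The ubiquitous type IV pair was highest at day 3. Col4a1 and Col4a2 encode the partner chains of the common type IV molecule, and their annotated starts lie 21 bases apart on opposite strands of chromosome 8 (RefSeq, GRCm38.p6). Col4a1 measured 549, 379 and 435 CPM at day 0, and 720, 639 and 693 at day 1. Day 3 showed 889, 889 and 639, followed by 662, 461 and 671 at day 5 and by 519, 406 and 465 at day 7. Col4a2 measured 324, 207 and 235 CPM at day 0, and 421, 363 and 374 at day 1. Day 3 gave 519, 478 and 390, followed by 366, 269 and 386 at day 5 and by 289, 209 and 253 at day 7. All day 1 and day 3 libraries of both chains lay above day 0 and the day 7 libraries were back in its range. Both changed over time by edgeR (adjusted p = 0.0293 for Col4a1 and 0.0243 for Col4a2), although no single contrast with day 0 passed (at day 3, log2 0.83 ± 0.19 for Col4a1, adjusted p = 0.0603 and 0.85 ± 0.19 for Col4a2, adjusted p = 0.0592). Col4a2 fell from day 1 to day 7 (log2 -0.62 ± 0.19, adjusted p = 0.0465). Endothelial markers, all 5 detected at every day, also had their highest mean at day 3. They summed to 243 to 271 CPM on day 0, 274 to 381 on day 1, 423 to 575 on day 3, 227 to 466 on day 5 and 227 to 302 on day 7. Day 3 also had the highest mean sum of keratinocyte (10277 CPM), pericyte and smooth muscle (1220) and macrophage markers (1564). Single markers of these and the endothelial list differed. Krt10 and Krt15 had their lowest mean at day 3. Krt1, Emcn and Rgs5 were highest at day 5, and Cspg4, Cd68, Mrc1 and Cd163 at day 1. Their other members were highest at day 3. The macrophage sums of day 3 (1464 to 1615 CPM) lay within the day 0 range (1354 to 1659). The remaining marker lists were highest on other days. The part of these cell types in the result was not tested. The calls over time were lost without replicate 2 or 3 of day 0, replicate 1 or 2 of day 1, replicate 1 or 2 of day 3 or replicate 2 of day 7 (adjusted p from 0.0545 to 0.0761) for Col4a1. For Col4a2 this was so without replicate 3 of day 0, replicate 1 of day 1, replicate 1 or 2 of day 3 or replicate 2 of day 7 (adjusted p from 0.0506 to 0.0658). The day 7 call of Col4a2 was lost without replicate 1, 2 or 3 of day 1 or replicate 2 or 3 of day 7 (adjusted p from 0.0777 to 0.157).

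The other type IV chains, which form the more restricted networks of specialised basement membranes, had their lowest mean at day 1 for Col4a4, Col4a5 and Col4a6 and at day 7 for Col4a3. Col4a5 measured 20.9, 30.9 and 26 CPM at day 0, and 11.9, 14.6 and 14.8 at day 1. Day 3 had 13.6, 16.5 and 21, followed by 18.2, 18.3 and 19 at day 5 and by 23.3, 19.4 and 15.4 at day 7. All 3 day 1 libraries lay below day 0, and Col4a5 fell at day 1 (log2 -0.91 ± 0.19, adjusted p = 0.019, edgeR) and changed over time (adjusted p = 0.0445). Col4a6, whose gene lies head to head with Col4a5, had its day 1 libraries (3.3 to 5.53 CPM) below those of day 0 (7.37 to 9.97) without a call (-0.91 ± 0.31, adjusted p = 0.0859), and so had Col4a4 (6.42 to 8.58 against 12.6 to 22.3 CPM, -1.29 ± 0.47, adjusted p = 0.106). Col4a3 lay between 1.7 and 8.99 CPM with overlapping days. The edgeR call of Col4a5 at day 1 was lost without replicate 2 or 3 of day 0 or replicate 1 or 2 of day 1 (adjusted p from 0.0556 to 0.099). The call over time was lost without replicate 2 or 3 of day 0, replicate 1, 2 or 3 of day 1, replicate 1 or 2 of day 3, replicate 1 or 3 of day 5 or replicate 2 of day 7 (adjusted p from 0.0532 to 0.143).

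Col15a1 and Col18a1 encode the multiplexin chains of basement membranes, whose released ends include endostatin from type XVIII. Col15a1 was lowest at day 1 and Col18a1 highest at day 3. Col15a1 measured 204, 189 and 215 CPM at day 0, and 75.3, 101 and 113 at day 1. At day 3 it measured 168, 175 and 228, followed by 167, 129 and 184 at day 5 and by 174, 155 and 123 at day 7. Its 3 day 1 libraries were the lowest of the 15, and it fell at day 1 against day 0 (log2 -1.07 ± 0.19, adjusted p = 0.0115, edgeR) and rose from day 1 to day 7 (log2 0.64 ± 0.18, adjusted p = 0.0377). Col18a1 measured 165, 140 and 151 CPM at day 0, and 170, 167 and 218 at day 1. Day 3 gave 255, 305 and 251, followed by 253, 196 and 252 at day 5 and by 195, 166 and 189 at day 7. All 12 later libraries lay above the day 0 maximum, by little at day 1 and 7, and the gene rose at day 3 (log2 0.83 ± 0.14, adjusted p = 0.0334). Over the time course both changed (adjusted p = 0.0171 for Col15a1 and 0.0117 for Col18a1), the latter with each of 15 libraries left out. Col12a1, Col18a1 and Col27a1 were the 3 chains of 40 with all later libraries above day 0, against 1.76% of all tested genes, and no chain had all later libraries below it, against 2.11%. The endothelial, keratinocyte, pericyte and smooth muscle, and macrophage sums were also highest by mean at day 3, as Col18a1 was. Not all single markers in these sums were highest there, as given above for the type IV pair. The part of these cell types was not tested. The call of Col15a1 at day 1 was lost without replicate 2 of day 0 (adjusted p = 0.0575) and that at day 7 without replicate 1 or 2 of day 1 or replicate 1 or 2 of day 7 (adjusted p from 0.084 to 0.113). Its call over time was lost without replicate 2 of day 1 (adjusted p = 0.0534), and the day 3 call of Col18a1 was lost without replicate 2 or 3 of day 0 or replicate 1 or 2 of day 3 (adjusted p from 0.111 to 0.19).

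Col7a1, the chain of the anchoring fibrils that hold the epidermis to the dermis, rose late. It measured 36, 31.8 and 29.9 CPM at day 0, and 26.3, 31 and 47 at day 1. By day 3 it stood at 46.3, 50.9 and 70.8, followed by 93.8, 45.8 and 69.1 at day 5 and by 87.4, 89.4 and 58.3 at day 7. Day 1 overlapped day 0, every library from day 3 on lay above it, and Col7a1 was higher at day 7 than at day 0 (log2 1.27 ± 0.28, adjusted p = 0.023, 2.41-fold, edgeR) and than at day 1 (log2 1.17 ± 0.28, adjusted p = 0.0165). Col17a1, the hemidesmosome protein of basal keratinocytes that spans their membrane above these fibrils, measured 399, 269 and 198 CPM at day 0, and 410, 322 and 382 at day 1. Day 3 had 419, 292 and 444, followed by 340, 285 and 408 at day 5 and by 257, 280 and 172 at day 7. It had no call. Summed keratinocyte markers (5 of 5 detected) were 4379 to 7634 CPM on day 0, 5919 to 12280 on day 1 and 8467 to 13193 on day 3. They were 6976 to 10805 CPM on day 5 and 5999 to 8286 on day 7, and their part in the Col7a1 difference was not tested. The call of Col7a1 at day 7 against day 0 was lost without replicate 2 or 3 of day 0 or replicate 2 of day 7 (adjusted p from 0.0636 to 0.0798). Against day 1 it was lost without replicate 1 or 2 of day 1 or replicate 2 of day 7 (adjusted p from 0.0607 to 0.0655), and over time without replicate 2 of day 0, replicate 2 of day 1 or replicate 2 of day 7 (adjusted p from 0.0542 to 0.0584).

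Of the other transmembrane chains, Col23a1 was high early and Col25a1 late. Col23a1, a chain shed from epithelial cell surfaces, measured 25.6, 20.5 and 20.1 CPM at day 0, and 38.1, 42.8 and 34.6 at day 1. Values at day 3 were 52.9, 43 and 28.8, followed by 27, 21.7 and 26.9 at day 5 and by 25.9, 23.4 and 15.7 at day 7. All day 1 and day 3 libraries lay above day 0, and the gene rose at day 1 (log2 0.8 ± 0.22, adjusted p = 0.0464, edgeR) and was lower at day 7 than at day 1 (log2 -0.83 ± 0.22, adjusted p = 0.0275). Col25a1, known from neurons and as a signal from muscle to motor axons, was near the floor of detection with 0.168, 0.38 and 0.655 CPM at day 0, and 0.232, 0.186 and 0.367 at day 1. Day 3 showed 0.185, 0.164 and 0.265, followed by 0.606, 0.503 and 0.61 at day 5 and by 1.66, 1.66 and 0.832 at day 7. All 15 libraries together held 412 counts of it. It was below 1 CPM in 13 libraries and reached that level only in replicates 1 and 2 of day 7. It is thus a member only through the day at which it was called higher. The 3 day 7 libraries were its highest, and it rose against day 0 (log2 1.78 ± 0.45, adjusted p = 0.036) and day 1 (log2 2.4 ± 0.46, adjusted p = 0.00585). The second call held with each library left out, as did that over time (adjusted p = 0.00915). Schwann cell markers (5 of 5 detected) summed to 398 to 419 CPM at day 0 and 123 to 347 at day 7, and summed skeletal muscle markers were 5867 to 9133 CPM at day 0 and 2001 to 5431 at day 7. Col13a1, found at cell-matrix junctions, lay between 2.58 and 6.7 CPM without a call. The day 1 call of Col23a1 was lost without replicate 2 or 3 of day 0 or replicate 1, 2 or 3 of day 1 (adjusted p from 0.0758 to 0.181). Its day 7 call was lost without replicate 1 or 2 of day 1 or replicate 2 or 3 of day 7 (adjusted p from 0.0627 to 0.0901), and that over time without replicate 2 of day 0 or replicate 2 of day 1 (adjusted p from 0.0504 to 0.0523). For Col25a1 the call against day 0 was lost without replicate 1 or 2 of day 0 or replicate 1 or 2 of day 7 (adjusted p from 0.0562 to 0.112).

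**Figure D3:**
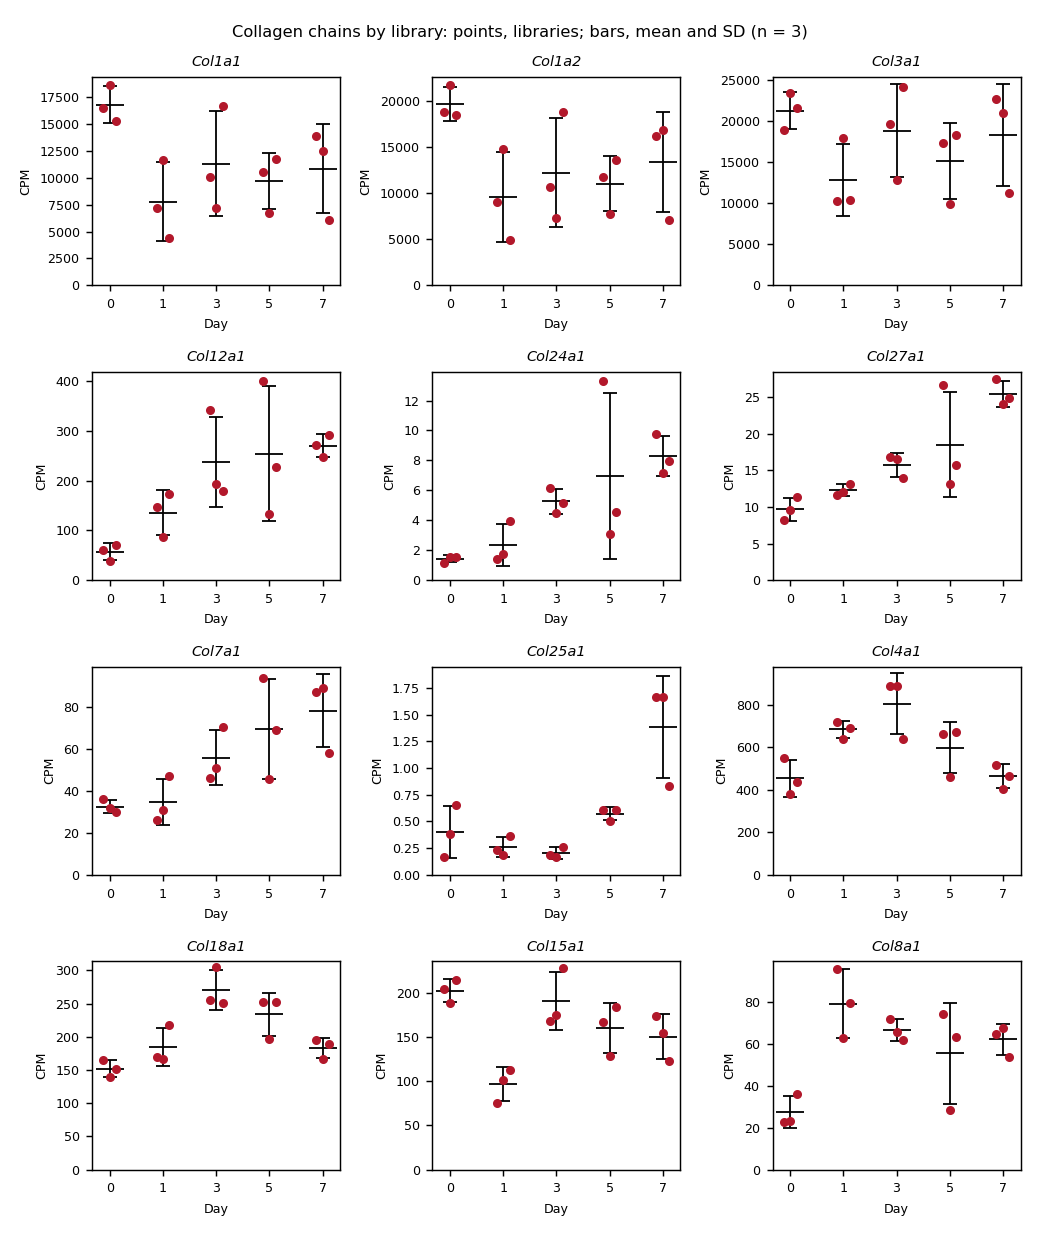
TMM-scaled CPM (y axes, each from 0) of 12 chains by day (x axes), with 1 point per library and bars for the mean and SD of 3 libraries. The type I and III chains scatter widely after day 0, Col12a1, Col24a1, Col27a1 and Col7a1 are high at day 7, Col25a1 reaches 1.66 CPM at day 7, and Col15a1 is lowest at day 1.

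Type VI collagen forms beaded microfilaments around cells, and all 6 of its chains had their lowest mean at day 1. Col6a1 measured 646, 652 and 829 CPM at day 0, and 388, 508 and 486 at day 1. Day 3 gave 738, 649 and 904, followed by 940, 513 and 753 at day 5 and by 1029, 875 and 630 at day 7. Col6a2, its neighbour and partner, measured 609, 651 and 789 CPM at day 0, and 322, 443 and 436 at day 1. Day 3 had 632, 581 and 732, followed by 774, 484 and 652 at day 5 and by 969, 779 and 590 at day 7. The day 1 libraries of both lay below all of day 0, and Col6a2 fell at day 1 (log2 -0.77 ± 0.21, adjusted p = 0.0468, edgeR) where Col6a1 missed the threshold (-0.62 ± 0.23, adjusted p = 0.113). From day 1 to day 7 both rose (log2 0.87 ± 0.23 for Col6a1, adjusted p = 0.0274 and 0.96 ± 0.21 for Col6a2, adjusted p = 0.0116), and the Col6a2 call held with each library left out. Col6a3, the long chain of the same molecule, measured 480, 424 and 561 CPM at day 0, and 357, 433 and 480 at day 1. At day 3 it measured 619, 557 and 758, followed by 775, 359 and 592 at day 5 and by 817, 647 and 467 at day 7. No contrast of Col6a3 passed. The call of Col6a2 at day 1 was lost without replicate 2 or 3 of day 0 or replicate 1, 2 or 3 of day 1 (adjusted p from 0.086 to 0.154), and that of Col6a1 at day 7 without replicate 1, 2 or 3 of day 1 or replicate 1 or 2 of day 7 (adjusted p from 0.0582 to 0.0929).

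The alternative type VI chains, related to Col6a3 in sequence, ranged from 0.339 to 40.2 CPM. Col6a5 measured 8.24, 6.96 and 11.6 CPM at day 0, and 3.87, 5.49 and 6.73 at day 1. Day 3 gave 7.96, 7.41 and 14.9, followed by 17.2, 8.04 and 9.92 at day 5 and by 25.7, 15 and 6.57 at day 7. Col6a6 measured 15.8, 21.8 and 34.3 CPM at day 0, and 7.15, 9.46 and 12.8 at day 1. By day 3 it stood at 17.2, 15.8 and 35, followed by 25.8, 14.3 and 23.4 at day 5 and by 40.2, 32.4 and 14.8 at day 7. Col6a4 measured 0.634, 0.607 and 0.576 CPM at day 0, and 0.339, 0.507 and 0.862 at day 1. Day 3 had 1.35, 1.23 and 1.49, followed by 0.999, 0.783 and 1.16 at day 5 and by 1.43, 1.56 and 0.928 at day 7. All 3 were lowest by mean at day 1 and higher at day 7 than at day 1 (edgeR, log2 1.55 ± 0.46 for Col6a5, adjusted p = 0.0416, 1.57 ± 0.43 for Col6a6, adjusted p = 0.0302 and 1.19 ± 0.32 for Col6a4, adjusted p = 0.0289), though for Col6a5 day 7 replicate 3 fell within the range of day 1. Col6a4 also changed over time (adjusted p = 0.0375), at levels near 1 CPM. It was below 1 CPM in 9 libraries, with all of day 0 and 1 among them. It is thus a member only through the later days, at which it was higher. The day 7 calls were lost without replicate 1, 2 or 3 of day 1 or replicate 1 or 2 of day 7 (adjusted p from 0.0648 to 0.148) for Col6a5 and without replicate 1 or 2 of day 1 or replicate 1 or 2 of day 7 (adjusted p from 0.0815 to 0.109) for Col6a6. For Col6a4 it was lost without replicate 1 or 2 of day 1 or replicate 1 or 2 of day 7 (adjusted p from 0.0646 to 0.0958), and the call over time without replicate 2 or 3 of day 0, replicate 1 or 2 of day 1, replicate 1, 2 or 3 of day 3, replicate 1 or 3 of day 5 or replicate 1 or 2 of day 7 (adjusted p from 0.0511 to 0.0919).

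Type VIII is a short-chain collagen of vessel walls and of the endothelium of the cornea. Col8a1 measured 22.7, 23.3 and 36.1 CPM at day 0, and 95.4, 62.8 and 79.2 at day 1. Values at day 3 were 72, 65.6 and 61.7, followed by 74.4, 28.4 and 63.4 at day 5 and by 64.8, 67.7 and 53.8 at day 7. Every library of day 1, 3 and 7 lay above day 0, and day 5 replicate 2 fell within the day 0 range. Col8a1 rose 2.89-fold at day 1 (log2 1.53 ± 0.3, adjusted p = 0.0157, edgeR) and was still higher at day 7 (log2 1.18 ± 0.3, adjusted p = 0.0347). Col8a2 measured 6.62, 5.52 and 6.99 CPM at day 0, and 4.06, 4.31 and 8.51 at day 1. Day 3 showed 9.7, 5.71 and 6.45, followed by 14.8, 9.58 and 9.55 at day 5 and by 10.3, 12 and 13.5 at day 7. It was higher at day 7 than at day 1 (log2 1.09 ± 0.3, adjusted p = 0.0292). Col26a1 (1.05 to 3.38 CPM) and Col28a1 (8.03 to 16.7 CPM) had no call. The day 1 call of Col8a1 was lost without replicate 2 of day 0 or replicate 1 of day 1 (adjusted p from 0.0605 to 0.0895). Its day 7 call was lost without replicate 1 or 2 of day 0 or replicate 2 or 3 of day 7 (adjusted p from 0.0694 to 0.118), and that over time without replicate 1 or 2 of day 0, replicate 1 or 3 of day 1, replicate 1 or 2 of day 3 or replicate 2 of day 7 (adjusted p from 0.0545 to 0.122). The call of Col8a2 was lost without replicate 1 or 2 of day 1 or replicate 2 or 3 of day 7 (adjusted p from 0.061 to 0.109).

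Set out by comparison, day 1 was the day on which more chains were below day 0 than above it. At day 1 the median log2 difference of the 40 chains was -0.39, against -0.01 over all genes. A positive value was seen for 14 of the 40, or 35% against 49% of all genes. All libraries lay below day 0 for 17, or 42.5% against 18% of all genes. By edgeR, 2 chains were higher (Col8a1 and Col23a1, against 4.22% of all genes) and 3 lower (Col15a1, Col4a5 and Col6a2, against 3.36%). This made 12.5% of the chains and 7.58% of all genes. The count over all genes moved with the libraries too. Without replicate 1, 2 or 3 of day 0, 10, 0 and 2 chains were called beside 13.8%, 0.19% and 0.815% of all genes. Without those of day 1, 1, 2 and 3 chains were called beside 0.786%, 1.79% and 2.44%. DESeq2 called 14 chains and 16.3% of all genes. By day 3 the median was 0.15, and edgeR called Col12a1 and Col18a1 higher (0.595% of all genes) and none lower (0.193%), or 5% of the chains against 0.788% of all genes. Both calls were lost without replicate 2 or 3 of day 0 or replicate 1 or 2 of day 3, where edgeR called 0 of all genes. Without replicate 1 of day 0, 5 chains and 3.61% of all genes were called, and DESeq2 called 10 chains and 5.5% of all genes.

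For day 5 the median difference from day 0 was 0.12 and Col12a1 alone was called by edgeR, as higher. Of all genes 0.21% were called higher, 0.292% lower and 0.502% in all. Its call was lost without replicate 2 or 3 of day 0 or replicate 1 or 3 of day 5. The count was 2 without replicate 1 of day 0 (2.84% of all genes), 5 without replicate 2 of day 5 (0.432%), and 6 with DESeq2 (6.77%). At day 7, 6 chains were higher than at day 0 and none lower (Col7a1, Col8a1, Col12a1, Col24a1, Col25a1 and Col27a1), where 3.1% of all genes were higher and 3.94% lower. The 6 are 15% of the chains, against 7.05% of all genes called, and the median over the 40 was 0.19. They include Col25a1, a member only through day 7 libraries. Their log2 fold changes ran from 1.18 for Col8a1 to 2.55 for Col24a1. That count was 2 without replicate 2 of day 0 (1.67% of all genes) and 3 without replicate 2 of day 7 (2.44%). These 4 comparisons share the day 0 libraries.

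Between successive days most chains had higher values at day 3 than at day 1, with no single call. From day 1 to day 3, 37 of 40 chains had a positive log2 difference, or 92.5% against 49% of all genes (median 0.39, all genes -0.01). All day 3 libraries lay above all of day 1 for 15 chains, or 37.5% against 11.6% of all genes. EdgeR called 0 chains, in a comparison that called 0.00584% of all genes. At an unadjusted p under 0.05 there were 14 of the 40 chains, beside 2199 of all 17136 genes. DESeq2 called 6 chains (2.74% of all genes). The edgeR count was 1 without day 1 replicate 3 (0.166%) and 4 without the 2 libraries high in hair keratins (1.5%), which are not part of this contrast. From day 3 to day 5 the median was -0.09, and edgeR called 0 chains (0.0233% of all genes) and DESeq2 0 (3.1%). At an unadjusted p under 0.05 edgeR gave 6 chains, beside 2586 of all 17136 genes. From day 5 to day 7 the median was 0.16, and edgeR called 0 chains (0.00584% of all genes) and DESeq2 0 (0.893%). Here edgeR gave 3 chains at an unadjusted p under 0.05, beside 1573 of all 17136 genes.

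Day 7 against day 1 gave the most calls. By edgeR 15 chains were higher at day 7 and 2 lower, against 5.75% and 8.59% of all genes. The 17 are 42.5% of the 40, against 14.3% of all genes called, and the median log2 difference was 0.65 against 0.03 over all genes. The 15 were 4 fibrillar chains (Col5a1, Col5a3, Col24a1 and Col27a1), Col7a1 and Col15a1 of the basement membrane, Col9a3 and Col16a1 of the fibril-associated class, the transmembrane Col25a1, and 6 other chains (Col6a1, Col6a2, Col6a4, Col6a5, Col6a6 and Col8a2). Of the 15, Col6a4 and Col25a1 reached 1 CPM in no library of day 0 or 1. Col4a2 and Col23a1 were the 2 lower chains. All 10 fibrillar chains had a positive difference, against 53.5% of all genes, with a median of 0.68, but Col1a1, Col1a2 and Col3a1 passed no test. Leaving out replicate 1 or 2 of day 1 turned the count of 17 into 4 or 6 (6.51% and 7.64% of all genes), and leaving out replicate 1 or 2 of day 7 turned it into 10 or 3 (12.8% and 7.27%).

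Ratios between chains within a library do not depend on how libraries are scaled. Across the days 11 chosen pairs of chains, some of them partners in the same molecule, were compared by an exact permutation test. It ran over all 1401400 partitions of the 15 libraries, with adjustment over the 11. With libraries left out, 100000 random permutations were drawn instead, and those p-values are called sampled. In 5 of the 11 the ratio differed between days. The ratio of Col18a1 to Col15a1 counts was 0.81, 0.737 and 0.705 at day 0, and 2.26, 1.64 and 1.92 at day 1. Day 3 gave 1.51, 1.75 and 1.1, followed by 1.52, 1.52 and 1.37 at day 5 and by 1.12, 1.07 and 1.53 at day 7. All 12 later libraries exceeded day 0, most of all at day 1 (exact adjusted p = 0.00455). The ratio of Col7a1 to Col17a1, anchoring fibril to hemidesmosome chain, was 0.0902, 0.118 and 0.151 at day 0, and 0.0641, 0.0963 and 0.123 at day 1. Day 3 had 0.11, 0.175 and 0.159, followed by 0.276, 0.161 and 0.17 at day 5 and by 0.34, 0.319 and 0.34 at day 7. The day 7 libraries stood above all others and lay close together (exact adjusted p = 0.00455).

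Within type VI, the ratio of Col6a3 to Col6a1 was 0.744, 0.65 and 0.676 at day 0, and 0.919, 0.852 and 0.988 at day 1. At day 3 it was 0.839, 0.858 and 0.839, followed by 0.824, 0.7 and 0.786 at day 5 and by 0.794, 0.739 and 0.741 at day 7. Day 1 and day 3 lay above day 0 in every library (exact adjusted p = 0.00458), and this test and those of Col18a1/Col15a1 and Col7a1/Col17a1 held with each of 15 libraries left out. The ratio of Col12a1 to Col14a1 was 0.38, 0.212 and 0.245 at day 0, and 1.33, 0.722 and 1.14 at day 1. Day 3 gave 1.28, 1.19 and 0.549, followed by 1.38, 0.841 and 0.828 at day 5 and by 0.764, 0.99 and 1.72 at day 7. It was 0.212 to 0.38 at day 0 and 0.549 to 1.72 in the 12 later libraries (exact adjusted p = 0.0315). The sampled adjusted p exceeded the threshold without day 0 replicate 1 (0.0503), 2 (0.0849) or 3 (0.0599). The ratio of Col8a1 to Col4a1 also differed (means 0.0619 at day 0, 0.115 at day 1, 0.0838 at day 3, 0.0896 at day 5 and 0.136 at day 7, exact adjusted p = 0.0348). This call was lost without replicate 1 or 2 of day 0, replicate 1 of day 1, replicate 1 or 2 of day 3, replicate 3 of day 5 or replicate 1 or 2 of day 7 (sampled adjusted p from 0.056 to 0.0926).

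In the fibril itself the ratio of Col3a1 to Col1a1 was 1.14, 1.25 and 1.41 at day 0, and 1.43, 1.53 and 2.33 at day 1. By day 3 it was 1.94, 1.79 and 1.45, followed by 1.63, 1.46 and 1.55 at day 5 and by 1.63, 1.68 and 1.83 at day 7. It was 1.14 to 1.41 at day 0 and 1.43 to 2.33 in the 12 later libraries, which thus all lay above day 0, but the spread within day 1 was wide and the test over days did not pass (exact adjusted p = 0.133). Without day 1 replicate 3 the sampled adjusted p was 0.0278. The ratio of Col5a2 to Col1a1 was 0.0585, 0.0491 and 0.0623 at day 0, and 0.0814, 0.0651 and 0.159 at day 1. Day 3 had 0.121, 0.125 and 0.0827, followed by 0.115, 0.0856 and 0.0956 at day 5 and by 0.0906, 0.0928 and 0.136 at day 7. The Col5a2 to Col1a1 ratio too lay above day 0 in all later libraries and was not past the threshold (exact adjusted p = 0.114, and sampled 0.0242 without day 1 replicate 3). Col5a1 to Col1a1 (exact adjusted p = 0.133) and Col1a1 to Col1a2 (0.114) did not pass either. Their sampled adjusted p-values were 0.0242 and 0.0306 without day 1 replicate 3. Col6a1 to Col6a2 ranged from 1.0 to 1.24 (exact adjusted p = 0.0924, and sampled 0.0269 without day 5 replicate 2). Col4a1 to Col4a2, the pair with the divergent starts, ranged from 1.64 to 1.94 (exact adjusted p = 0.452).

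**Figure D4:**
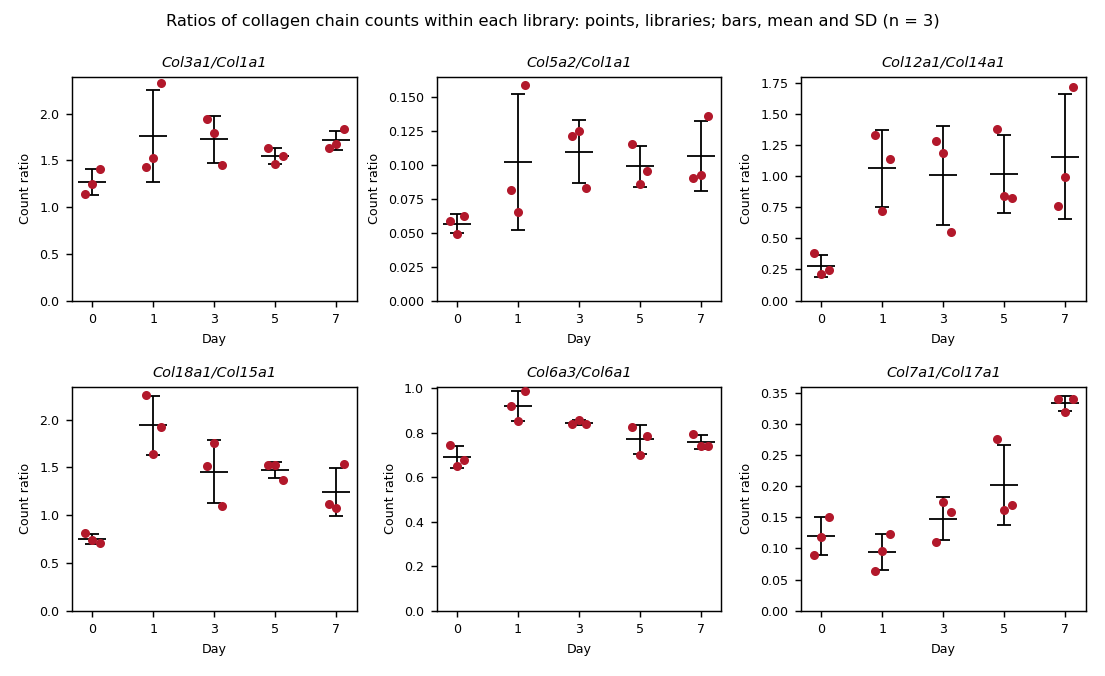
Ratios of the counts of 2 collagen chains within each library (y axes, each from 0) by day (x axes), with 1 point per library and bars for the mean and SD of 3 libraries. Col18a1/Col15a1, Col12a1/Col14a1, Col3a1/Col1a1 and Col5a2/Col1a1 are above day 0 in all 12 later libraries, and Col7a1/Col17a1 is 0.319 to 0.34 at day 7.

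The genes that make, process, bind and degrade collagen were read from 5 lists with 58 genes in all. Over time edgeR called 5 of 19 genes of folding and hydroxylation, 2 of 12 of propeptide removal and cross-linking, 2 of 9 tested receptors, 4 of 11 small leucine-rich and fibril-binding proteins and 2 of 6 collagenases and gelatinases, where 13.9% of all genes were called. P4ha3, a subunit of the prolyl hydroxylase that stabilises the collagen helix, measured 5.39, 5.9 and 6.89 CPM at day 0, and 10.2, 9.93 and 16.3 at day 1. Values at day 3 were 21.8, 22.3 and 16.4, followed by 27.7, 10 and 18.5 at day 5 and by 17.6, 12.9 and 18.8 at day 7. Its later libraries all lay above day 0, and by edgeR it rose at day 3 (log2 1.73 ± 0.32, adjusted p = 0.0393), day 5 (1.63 ± 0.32, adjusted p = 0.0467) and day 7 (1.44 ± 0.32, adjusted p = 0.0224). Plod2, the telopeptide lysyl hydroxylase, measured 6.95, 9.69 and 12.9 CPM at day 0, and 11.2, 9.85 and 20.1 at day 1. Day 3 showed 28, 28.8 and 25.7, followed by 37.3, 21.9 and 19.7 at day 5 and by 27.8, 18.1 and 41.9 at day 7. It rose at day 7 (log2 1.57 ± 0.36, adjusted p = 0.027). Creb3l1, a transcription factor of collagen secretion, was 92.4 to 118 CPM at day 0 and 38.7 to 59.5 at day 1 and fell there (log2 -1.19 ± 0.2, adjusted p = 0.00999), while the disulfide isomerase P4hb rose by a small amount (0.42 ± 0.11, adjusted p = 0.0397). The P4ha3 call at day 3 was lost without replicate 2 or 3 of day 0 or any 1 replicate of day 3 (adjusted p from 0.0511 to 0.206). Its day 5 call was lost without any 1 replicate of day 0 or replicate 1 or 3 of day 5 (0.0523 to 0.161). At day 7 the calls of P4ha3 (0.0532 to 0.0789) and Plod2 (0.0523 to 0.0998) were lost without any 1 replicate of day 0 or replicate 3 of day 7. The day 1 call of Creb3l1 was lost without replicate 2 of day 0 (adjusted p = 0.0609), and that of P4hb without replicate 2 or 3 of day 0 or any 1 replicate of day 1 (0.0839 to 0.165). The list counts of 15 genes in all became 8 without replicate 2 of day 0 or 7 or replicate 1 or 2 of day 1 (6.74% to 8.19% of all genes), and 9 without replicate 1 or 3 of day 3 (9.02% and 11.4%). They became 23 without replicate 2 of day 5 (15.5%), 30 without both libraries high in hair keratins (22.1%) and 26 with DESeq2 (34.2%).

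Of 11 fibril-binding proteins, Aspn, Ogn and Comp fell at day 1, against 3.36% of all genes called lower (edgeR, log2 -1.17 ± 0.28 for Aspn, adjusted p = 0.0292, -1.22 ± 0.28 for Ogn, adjusted p = 0.0255 and -1.62 ± 0.39 for Comp, adjusted p = 0.0284). Comp was near the floor of detection, at 0.858 to 1.91 CPM at day 0 and 0.357 to 0.623 at day 1. At day 7, 3 of 11 were higher than at day 1, against 5.75% of all genes (log2 1.63 ± 0.28 for Aspn, adjusted p = 0.00337, 1.5 ± 0.43 for Kera, adjusted p = 0.0367 and 0.96 ± 0.28 for Ogn, adjusted p = 0.0383). Prelp was lower at day 7 than at day 1 (-1.37 ± 0.32, adjusted p = 0.0144), where 8.59% of all genes were. The neutrophil collagenase Mmp8 was 1.57 to 4.6 CPM at day 0 and 21.4 to 27.8 at day 1, and rose at day 1 (log2 3.02 ± 0.42, adjusted p = 0.00515) and day 3 (2.49 ± 0.41, adjusted p = 0.0334), and the gelatinase Mmp9 rose at day 1 (1.33 ± 0.34, adjusted p = 0.0378). At day 7 both were lower than at day 1 (-3.23 ± 0.42 for Mmp8, adjusted p = 0.00074 and -2.13 ± 0.35 for Mmp9, adjusted p = 0.0026). Among receptors, the integrin chain Itga1 rose at day 1 (1.03 ± 0.21, adjusted p = 0.0188) and day 3 (1.05 ± 0.21, adjusted p = 0.0479), and Itga2 fell at day 7 (-0.88 ± 0.21, adjusted p = 0.0294). The cross-linking enzyme Loxl2 fell at day 1 (-0.8 ± 0.21, adjusted p = 0.0414) and was higher at day 7 than at day 1 (0.89 ± 0.21, adjusted p = 0.0164), as was the procollagen protease Adamts14 (0.91 ± 0.23, adjusted p = 0.0229). Day 7 against day 1 also called the integrin chains Itga10 and Itga11 as higher (0.94 ± 0.25 for Itga10, adjusted p = 0.0291, with 1.05 to 1.34 CPM at day 1 and 1.8 to 3.18 at day 7, and 1.35 ± 0.4 for Itga11, adjusted p = 0.0406). It called Itga1 and Itga2 as lower (-0.75 ± 0.21 for Itga1, adjusted p = 0.0354 and -1.11 ± 0.21 for Itga2, adjusted p = 0.00541). Among folding genes it called Creb3l1 and P3h4 as higher (0.84 ± 0.19 for Creb3l1, adjusted p = 0.0149 and 0.56 ± 0.16 for P3h4, adjusted p = 0.0362) and the lysyl hydroxylase Plod3 as lower (-0.72 ± 0.13 for Plod3, adjusted p = 0.00448).

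Few of the calls on these processing, binding and receptor genes held with each of the 6 libraries of their contrast left out in turn. Over all 5 lists this was so for 6 of 31 such calls, those of Mmp8 at day 1 and of Aspn, Itga2, Mmp8, Mmp9 and Plod3 for day 7 against day 1. At day 1 the calls of Ogn, Mmp9 and Loxl2 were lost without replicate 2 or 3 of day 0 or any 1 replicate of day 1 (adjusted p from 0.0574 to 0.164). Those of Comp and Itga1 were lost without replicate 2 or 3 of day 0 or replicate 1 or 2 of day 1 (0.0521 to 0.112), and that of Aspn without replicate 2 or 3 of day 0 or replicate 1 or 3 of day 1 (0.0702 to 0.131). The day 3 calls of Itga1 (0.0821 to 0.236) and Mmp8 (0.0512 to 0.186) were lost without replicate 2 or 3 of day 0 or any 1 replicate of day 3. The Itga2 call at day 7 against day 0 was lost without any 1 replicate of day 0 or replicate 2 or 3 of day 7 (0.0646 to 0.108). For day 7 against day 1, the calls of Itga10, Itga11, Kera and Ogn were lost without any 1 replicate of day 1 or replicate 1 or 2 of day 7 (0.052 to 0.138). Itga1 lost its call without replicate 1 or 2 of day 1 or any 1 replicate of day 7 (0.0504 to 0.138), and Adamts14 without replicate 1 or 2 of either day (0.0678 to 0.0857). P3h4 lost it without replicate 1 or 3 of day 1 or replicate 1 or 2 of day 7 (0.0822 to 0.129), and Creb3l1 without replicate 1 or 3 of day 1 or replicate 2 of day 7 (0.0537 to 0.0557). The call of Loxl2 was lost without replicate 1 of day 1 or replicate 2 of day 7 (0.0571 to 0.0625), and that of Prelp without replicate 1 or 2 of day 1 (0.0565 to 0.0568).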

How the data were processed

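Whole-skin RNA was sequenced at 5 days with 3 libraries each. Per gene symbol, the authors deposited estimated counts. The submitters' processing notes name kallisto 0.43 as the tool. Which transcript index, annotation and build it used is not given in the sources used. The counts were whole numbers as deposited. Each file had 30307 rows, of which 26 held dates in place of gene names (0.155% to 0.179% of counts) and were left out. Members and lists were chosen with earlier results of these data known.

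Counts were filtered with filterByExpr (minimum count 10) and TMM-scaled, and edgeR 4.0.16 in R 4.3.3 fitted 1 robust quasi-likelihood model over 17136 genes with day as 5 groups, with p adjusted over all of them and a threshold of 0.05. SE is a standard error derived from the test, as the absolute log2 fold change divided by the square root of the quasi-likelihood F statistic. The biological coefficient of variation was 30.9%. With all 15 libraries, ratios and the collagen share were tested exactly over all partitions. With libraries left out, 100000 random permutations were used, so those p-values are estimates. Values are given in replicate order. Per-library values are given for every called chain and the 2 most abundant of each class, and Col1a1, Col5a2, Col6a3 and Col11a1 were added after their values were seen. From each pathway list the called genes with the largest changes are named, at most 4 per comparison. Promoter sequences are from RefSeq (GRCm38.p6) and transcript lengths from GENCODE M21. Alternatives were DESeq2 1.42.0, RLE scaling, no expression filter, a replicate block, and left-out libraries.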

Additional observations from a re-analysis of the deposited data

How the results depend on the processing

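No direction of a called chain reversed under any alternative run. For the number of chains called, RLE scaling and the replicate block left all 9 counts within 1.5 times (with the replicate block 6, 3, 1 and 6 for day 1, 3, 5 and 7 against day 0, 18 for day 7 against day 1, 12 over time and 11 pathway genes), and removing the expression filter changed the count at day 3 from 2 to 1 (Col12a1 lost, adjusted p = 0.0501), that for day 7 against day 1 from 17 to 15 (Col4a2, 0.0587, and Col6a5, 0.0507, lost) and that of the pathway genes from 15 to 14. The block called 5.03%, 0.455%, 0.158% and 4.8% of all genes at day 1, 3, 5 and 7 against day 0. It called 12% for day 7 against day 1 and 9.75% over time. Without the filter, 0.3% of all genes were called at day 3, 8.43% for day 7 against day 1 and 8.28% over time. With the block, day 1 had 4 chains higher and 2 lower in place of 2 and 3. The block gave no call for Col6a2 at day 1 (0.0745), Col6a5 for day 7 against day 1 (0.0658), or Col4a5 (0.0728) and Col6a4 (0.0663) over time. With DESeq2 the counts were 14, 10 and 6 at day 1, 3 and 5, 6 for day 3 against day 1, 24 over time, and 26 for the pathway lists. DESeq2 called 16.3%, 5.5%, 6.77%, 2.74%, 34.2% and 34.2% of all genes in these runs. Without the 2 libraries high in hair keratins, the counts were 16, 7 and 6, 4, 23 and 30. Beside them edgeR called 20.5%, 4.03%, 1.77%, 1.5%, 22.1% and 22.1% of all genes. When replicate 1 alone stood for day 0, an alternative chosen after seeing the data, it was assumed to vary like the other days. EdgeR then called 0 of all genes at day 1, 3 and 5 and 0.443% at day 7, and 0 chains at each of these days (4, 7, 8 and 8 at an unadjusted p under 0.05), which for day 1, 3 and 5 says nothing about stability. Each called chain kept its direction, with log2 fold changes of -1.07 for Col15a1 and -0.58 for Col4a5 at day 1 and 2.18 for Col12a1 at day 7. Over time 2 chains and 5 pathway genes were called (5.65% of all genes). Leaving out 1 library at a time gave 0 to 10 chains on day 1, 0 to 5 on day 3, 0 to 5 on day 5 and 2 to 6 on day 7, 0 to 1 for day 3 against day 1, 3 to 17 for day 7 against day 1, 5 to 20 over time and 8 to 23 pathway genes. Of 31 contrast calls 5 held with each library left out, and of 14 calls over time 3. Adjusted p-values of the ratios with 1 library left out came from random permutations. They ranged from 0.0278 to 0.0849 for Col12a1/Col14a1 (0.0859 with the replicate block, permuted within blocks), 0.0167 to 0.0926 for Col8a1/Col4a1, 0.0269 to 0.228 for Col6a1/Col6a2 (0.046 without the hair keratin libraries), 0.0306 to 0.262 for Col1a1/Col1a2, 0.0278 to 0.363 for Col3a1/Col1a1, 0.0242 to 0.323 for Col5a1/Col1a1 and 0.0242 to 0.306 for Col5a2/Col1a1. The cause was not tested. Replicate numbers did not pair the libraries: deviations of same-numbered libraries correlated at a mean r of 0.04 (-0.81 to 0.52, 30 pairs), and of others at -0.02. Genes near 1 CPM, such as Col25a1 and Col6a4, rest on few counts, and 3 libraries per day limit the precision throughout.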
